A study of Mus musculus with 18 samples.

Results

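RNA of the nuclear fraction was compared with RNA of the cytoplasmic fraction in BV2 cells treated for 12 h with oxyhemoglobin at 10 µM, a protein that bleeding sets free from red blood cells. BV2 is an immortalised line of mouse microglia, the resident macrophages of the brain. The study took RNA from both fractions at 0, 12 and 24 h, with 3 libraries in each of the 6 groups, 18 libraries in all. Both 12 h groups were treated, and the 0 h cells are the only untreated ones, so treatment and time in culture cannot be told apart. Cells were opened in a hypotonic detergent buffer, nuclei were pelleted and washed, and the cytoplasmic RNA was precipitated from the supernatant. Genes entered if their mean count was at least 10 in either 12 h column of the deposited count table, which held for 16367 of 55487 genes. Each column is the authors' mean of 3 libraries, so no spread between libraries could be given and no test was run. The labels do not say whether the 3 libraries of a group came from separate cultures.

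A eukaryotic mRNA is made, capped, spliced and polyadenylated in the nucleus and is then exported through the nuclear pore to be translated, while partly spliced transcripts and many long noncoding RNAs stay behind. Small nucleolar and most small nuclear RNAs work in the nucleus, whereas Y RNAs, signal recognition particle RNA and the transcripts of the mitochondrial genome are mainly found outside it. Macrophages answer inflammatory and oxidative signals with fast transcription of cytokine, chemokine and antioxidant genes. A ratio between fractions describes where the reads of these RNAs are found. It does not give what part of the transcribed RNA reaches the compartment of translation.

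Levels are given as counts scaled to 1000000 reads (CPM), with library sizes adjusted by TMM, a trimmed mean of log ratios that sets the bulk of moderately expressed genes equal between columns. The ratio is the log2 of the nuclear over the cytoplasmic level, so that positive values are higher in the nuclear fraction. A ratio of 0 stands for an equal share of scaled reads and not for equal numbers of molecules per cell, and fewer cells and less RNA per cell cannot be told apart. A gene was called where the ratio was at least 2-fold in either direction and its exact 95% counting interval excluded 0. The intervals cover counting error only, because reads without molecular identifiers are not independent molecules.

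The RNAs at the extremes of the comparison include short structured RNAs whose reference sequences can be shown whole. Rny1 and Rny3 encode Y RNAs, which bind the Ro60 protein, and lay far on the cytoplasmic side. Snord15a encodes a box C/D small nucleolar RNA and lay on the nuclear side, as did Rnu12, whose U12 RNA serves the minor spliceosome. The sequences are those of the GENCODE M21 transcripts on GRCm38, read 5′ to 3′ in the sense of the gene. Rny1 lies at chr6:47788069-47788180 (minus strand), Rny3 at chr6:47781624-47781725 (plus), Snord15a at chr7:99482785-99482932 (minus) and Rnu12 at chr15:83149644-83149794 (plus). Capitals mark TTTT, the termination signal of RNA polymerase III, in the Y RNAs, TGATGA and CTGA in the nucleolar RNA, and ATTTTTG, letters of the Sm protein binding site, in Rnu12.
Rny1: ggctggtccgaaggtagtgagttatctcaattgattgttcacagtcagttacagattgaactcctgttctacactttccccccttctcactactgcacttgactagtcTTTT
Rny3: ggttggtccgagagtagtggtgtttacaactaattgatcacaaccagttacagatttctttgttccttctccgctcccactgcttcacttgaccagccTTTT
Snord15a: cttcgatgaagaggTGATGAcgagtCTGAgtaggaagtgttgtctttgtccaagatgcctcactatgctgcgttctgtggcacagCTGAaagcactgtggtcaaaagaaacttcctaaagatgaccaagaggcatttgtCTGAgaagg
Rnu12: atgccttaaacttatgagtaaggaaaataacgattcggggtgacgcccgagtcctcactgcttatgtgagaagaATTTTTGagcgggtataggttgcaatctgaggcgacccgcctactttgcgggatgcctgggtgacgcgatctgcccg
Rny1 had 8.604 CPM in the nuclear and 506 CPM in the cytoplasmic fraction, a log2 ratio of -5.88 (95% counting interval -6.09 to -5.67). For Rny3 the levels were 28.6 CPM nuclear and 1667 CPM cytoplasmic, a ratio of -5.87. Both Y RNAs were thus far higher in the cytoplasmic column. Snord15a had 46.8 CPM nuclear and 1.34 CPM cytoplasmic (ratio 5.12). Rnu12 had 375 CPM nuclear and 66.7 CPM cytoplasmic (ratio 2.49). Both sat on the nuclear side under each scaling tried. Of the 213 small nucleolar RNA genes compared, 46 (21.6%) held both TGATGA and CTGA, read on the sense strand only, against 25.2% of the 1507 annotated ones, and the median ratio was 2.71 with and 2.70 without them. ATTTTTG occurred in 14 of the 154 small nuclear RNA genes compared (9.09%) and in 3.32% of the 1385 annotated ones, and TTTT in 42 of the 70 genes of the miscellaneous class that holds the Y RNAs, against 51.6% of 562.

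The 12 h columns stand for 15899566 nuclear and 16537318 cytoplasmic reads assigned to genes, and a mean count of 10 was reached by 15825 genes in the nuclear and 10126 genes in the cytoplasmic column. The nuclear column was dominated by 1 feature: ENSMUSG00000118642, which has no entry in the annotation used here, took 16.3% of the nuclear and 0.0635% of the cytoplasmic reads. Mitochondrially encoded genes took 0.518% of nuclear and 5.08% of cytoplasmic reads, and protein-coding genes 66.5% of nuclear and 90.4% of cytoplasmic reads. Of the RNAs used to check the labels, Malat1, Neat1 and Xist were higher in the nuclear fraction and Actb, Eef1a1 and the mitochondrial genes in the cytoplasmic one, while Rn7sk and Gapdh went against the usual assignment (values below). Of 14 microglial marker genes 9 passed the count limit, and P2ry12 was at 0 in both fractions. All 14 together summed to 441 CPM in the nuclear and 589 CPM in the cytoplasmic fraction.

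Of the 16367 genes, 7650 (46.7%) were higher in the nuclear and 5085 (31.1%) in the cytoplasmic fraction, and 3632 were not called. The median ratio over all of them was 0.71. That split depends on the scaling: with total counts every log2 ratio is 1.10 higher and the calls become 9564 nuclear and 2572 cytoplasmic, and without the dominant and mitochondrial genes in the total the shift is 1.29 with 9921 and 2111 calls. With log2(TPM + 1) values, 7564 genes were called nuclear and 2188 cytoplasmic, and the median shifted by 0.14. With median-of-ratios factors the shift was -0.30, with 7072 and 5680 calls. Gene groups are therefore set beside the median of all genes, a distance that does not move with a constant scaling factor. Genes just inside the limit (359 genes, mean counts of 10 to 10.7) had a median ratio of 1.87 and those just outside it (361 genes, 9 to 9.67) of 1.71.

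RNA classes separated along the ratio. Protein-coding genes divided almost evenly, with 3738 of 10602 (35.3%) called nuclear and 3972 (37.5%) called cytoplasmic and a median of -0.17, which turns positive with total counts (0.93), with the dominant genes left out of the total (1.12) and with TPM (0.47). Small nucleolar, small nuclear and small Cajal body RNAs had medians above that of all genes: 198 of 213 small nucleolar RNAs were higher in the nuclear fraction and 1 in the cytoplasmic one (median 2.70), as were 127 and 17 of 154 small nuclear RNA genes (2.77) and 14 and 0 of 17 small Cajal body RNAs (1.73). MicroRNA genes (129 nuclear and 7 cytoplasmic of 141, median 3.09) are counted over their hairpins, and these libraries do not show mature microRNAs. By reads the microRNA class was cytoplasmic, with a summed level of 1848 CPM nuclear and 13220 CPM cytoplasmic. Its member Gm23935 took 0.195% of nuclear and 0.885% of cytoplasmic reads. Most transcripts that lie in introns or opposite other genes were called nuclear: 165 of 179 sense-intronic genes (median 3.28) and 748 of 978 antisense genes (2.64). Loci annotated as awaiting experimental evidence (TEC) had the highest median of the classes with at least 10 genes, 3.44, with 1078 of 1213 called nuclear and 37 cytoplasmic. The strand setting of the counting is not given in the sources used here, so reads of unspliced host genes and of such overlapping loci cannot be told apart. Intergenic long noncoding RNAs were mixed, with 283 of 546 nuclear and 100 cytoplasmic (median 1.08). Processed pseudogenes, copies of mRNAs that went back into the genome, were divided into 759 nuclear and 750 cytoplasmic calls of 1622 (median 0.10). That median rests on the scaling and on the count limit: it was -0.21 with median-of-ratios factors, -1.81 for the 828 with a mean count of at least 30 and -1.04 for the 4472 with at least 1 read. Their reads can be those of the parent mRNA, and those with at most 10% of 50-base windows shared with another gene had a median of 3.17.

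**Figure D1:**
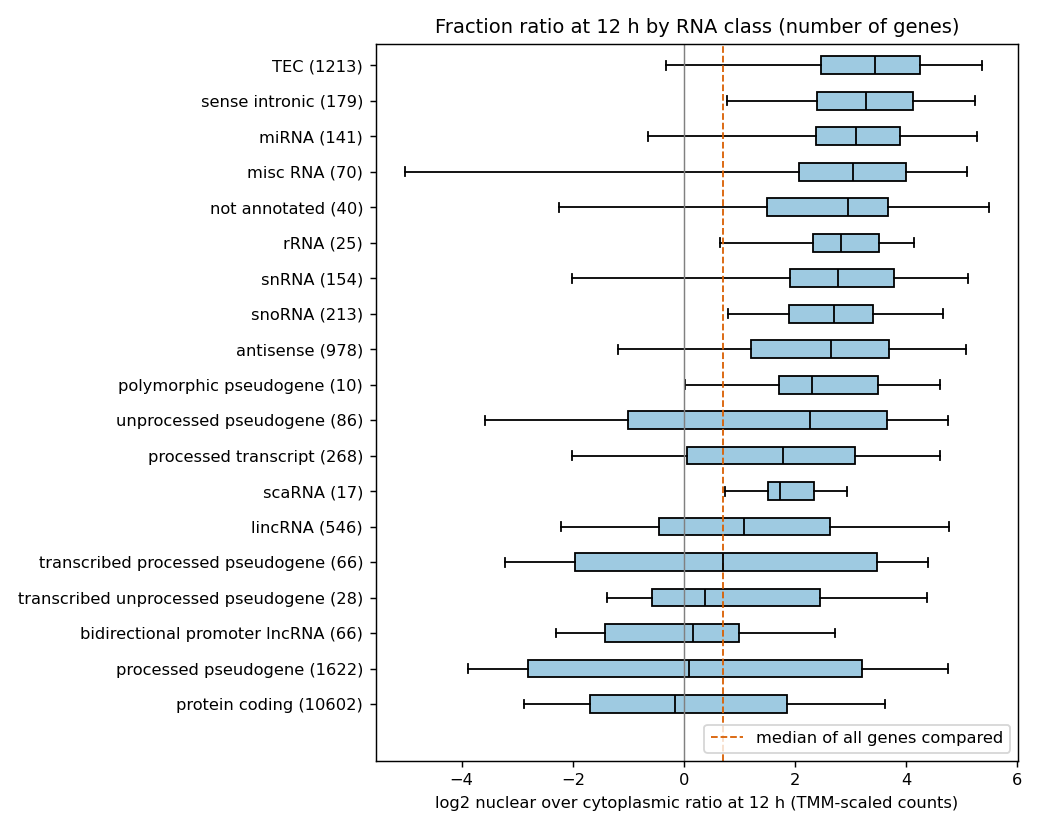
Log2 nuclear over cytoplasmic ratio at 12 h for each RNA class with at least 10 genes compared, highest median at the top. Boxes span the quartiles with the median as a line, whiskers run from the 5th to the 95th percentile of genes, and the dashed line is the median of all genes (0.71); protein-coding genes have the lowest median (-0.17) and loci of the TEC class the highest (3.44).

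Among long noncoding RNAs with a known nuclear location, 17 of 19 were higher in the nuclear fraction and 1 in the cytoplasmic one, with a median of 3.26. Neat1, the scaffold of paraspeckles (chr19:5824708-5845478, minus strand), had 12912 CPM in the nuclear and 320.1 CPM in the cytoplasmic fraction, a ratio of 5.33 (5.29 to 5.38). Malat1, an RNA of nuclear speckles (chr19:5795690-5802672, minus strand), had 23132 CPM nuclear and 2421 CPM cytoplasmic (ratio 3.26). Xist, which coats the inactive X chromosome, had 7049 CPM nuclear and 533 CPM cytoplasmic (ratio 3.73). These 3 took 3.35% (Malat1), 1.87% (Neat1) and 1.02% (Xist) of all nuclear reads. The imprinted antisense RNA Kcnq1ot1, at 3759 CPM nuclear and 213 CPM cytoplasmic, had a ratio of 4.14, and the imprinted Peg13, at 9.34 CPM nuclear and 0.268 CPM cytoplasmic, one of 5.12. All 8 imprinted or X inactivation RNAs compared were called nuclear (median 3.78). The exceptions of the lncRNA list were Tug1, with 94.1 CPM nuclear and 109.5 CPM cytoplasmic (ratio -0.22, not called, and 0.88 with total counts), and Ptgs2os2, the antisense RNA beside Ptgs2, with 27.5 CPM nuclear and 129 CPM cytoplasmic (ratio -2.23). Host genes of small nucleolar RNAs, most of which make no protein, were nuclear in 12 of 19 cases and cytoplasmic in 1 (median 1.39). Gas5, a host gene with 54.97 CPM nuclear and 7.33 CPM cytoplasmic, had a ratio of 2.91, with exons that overlap the nucleolar RNAs it carries. Spliceosomal RNAs held 4 nuclear and 1 cytoplasmic call of 7 (median 1.65), and the cytoplasmic one was Rnu5g (5.34 CPM nuclear and 18.95 CPM cytoplasmic, ratio -1.83).

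Listed transcripts of RNA polymerase III and those of the mitochondrial genome were among the most cytoplasmic groups. All 8 polymerase III transcripts of the list that were compared were called cytoplasmic, with a median of -5.18. The list is a choice of RNAs: the miscellaneous class that holds the Y RNAs gave 58 nuclear and 10 cytoplasmic calls of 70 (median 3.05). The summed level of that class was 3045 CPM nuclear and 21456 CPM cytoplasmic. Vaultrc5, a vault RNA, had 3.91 CPM nuclear and 159 CPM cytoplasmic (ratio -5.34). Rpph1, the RNA of ribonuclease P, had 20.3 CPM nuclear and 660.4 CPM cytoplasmic (ratio -5.02), in exons that overlap Ccnb1ip1. Rn7sk encodes 7SK RNA, a regulator of transcription elongation best known from the nucleus, and went the same way as the Y RNAs: 2767 CPM nuclear and 18939 CPM cytoplasmic, a ratio of -2.77 (-2.79 to -2.76). It was the largest single noncoding RNA of the cytoplasmic column that is not mitochondrial, with 1.28% of its reads, and 68.1% of its 50-base windows also occur in transcripts of other genes. The 12 mitochondrially encoded protein and ribosomal RNA genes compared were all called cytoplasmic (median -3.77). mt-Co1, a subunit of cytochrome c oxidase, had 1021 CPM nuclear and 33994 CPM cytoplasmic (ratio -5.06), and mt-Nd4, a subunit of complex I, 141 CPM nuclear and 879 CPM cytoplasmic (ratio -2.64). The calls of both groups were the same under each scaling of the counts tried.

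**Figure D2:**
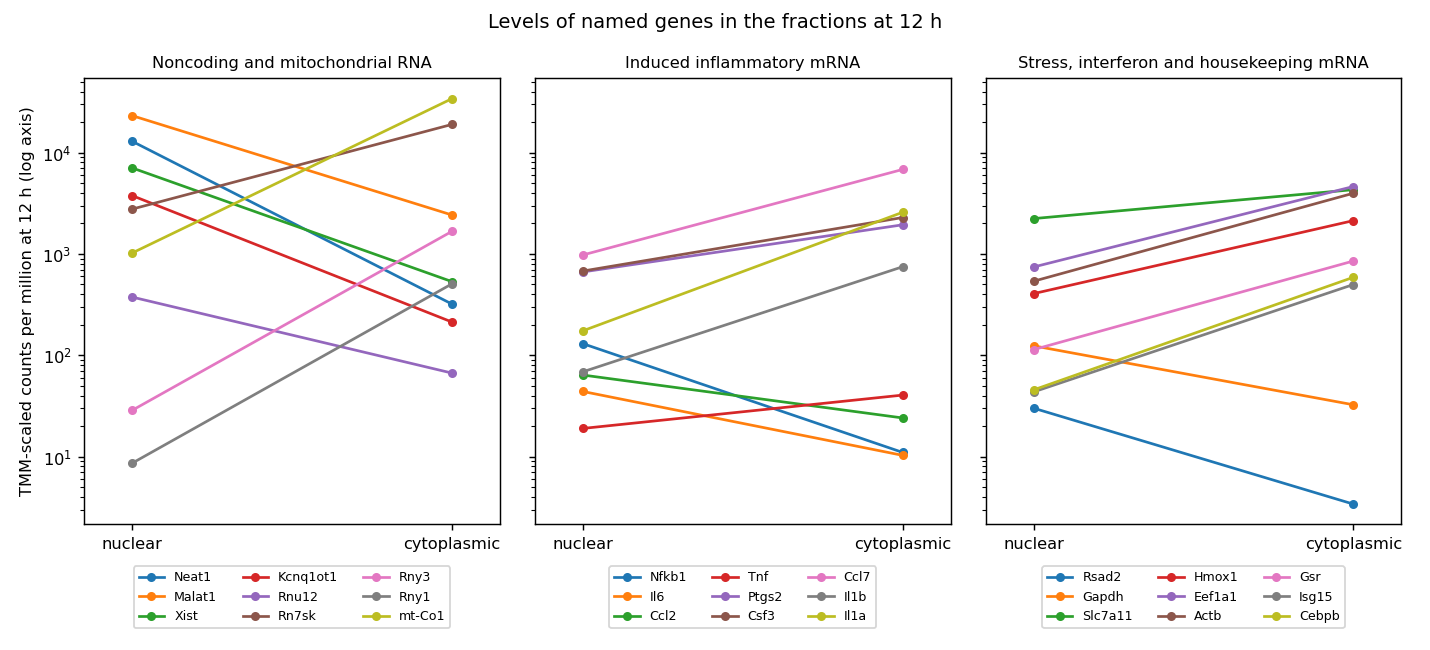
Scaled level (CPM, log axis) in the nuclear column, left, and the cytoplasmic column, right, of each panel at 12 h; every point is the authors' mean of 3 libraries and each line joins the values of 1 gene. Lines of nuclear long noncoding RNAs and of Rnu12 slope down while mt-Co1, Rn7sk and the Y RNAs slope up in the first panel, most induced inflammatory mRNAs slope up in the second with Nfkb1, Il6 and Ccl2 sloping down, and Rsad2 and Gapdh slope down in the third.

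The ends of the ranking held different kinds of RNA. Among genes with a plain symbol, at least 100 mean counts in the higher column and at least 1 read in the other, the 10 lowest ratios ran from -5.88 (Rny1) to -4.51 (Ftl1-ps1) and belonged to polymerase III and mitochondrial transcripts and the ferritin copy. The 10 highest ran from 5.21 (Mettl21c) to 7.30 (Olfr113) and, apart from Neat1, were all annotated as protein-coding, with few reads in the cytoplasm. Olfr113, an olfactory receptor gene, had 14.1 CPM nuclear and 0.0894 CPM cytoplasmic. Hsd11b2, which inactivates glucocorticoids, had 20.6 CPM nuclear and 0.179 CPM cytoplasmic (ratio 6.85). Col4a4, a collagen chain of basement membranes, had 18.3 CPM nuclear and 0.447 CPM cytoplasmic (ratio 5.36). These are genes whose reads in the microglial line came almost wholly from the nuclear fraction.

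Groups of nuclear-encoded mRNAs had called members on both sides. Replication-dependent histone mRNAs, which have no introns and end in a stem-loop in place of a poly(A) tail, were the most uniform: 1 of 54 was nuclear and 49 were cytoplasmic, with a median of -2.67. Of these 54 genes, 47 share over 10% of their 50-base windows with other genes, so their reads are not separate readings. The other 7 had a median of -1.97, with 1 nuclear and 5 cytoplasmic calls. Hist1h4h, a histone H4 gene, had 95.8 CPM nuclear and 1053 CPM cytoplasmic (ratio -3.46). Heat shock proteins (6 of 23 nuclear and 14 cytoplasmic, median -2.06), glycolytic and housekeeping genes (9 of 34 nuclear and 18 cytoplasmic, -1.65) and translation factors (6 of 39 nuclear and 23 cytoplasmic, -1.41) followed, all 3 with medians below 0 under each scaling tried. Eef2, the translocase of elongation, had 1574 CPM nuclear and 11847 CPM cytoplasmic (ratio -2.91). Actb, cytoplasmic beta-actin, had 537 CPM nuclear and 3965 CPM cytoplasmic (ratio -2.88), while Gapdh, the glycolytic dehydrogenase, had 124 CPM nuclear and 32.4 CPM cytoplasmic (ratio 1.93). For Gapdh 90.4% of the 50-base windows occur in other transcripts, so the counting could have placed its reads elsewhere. Ribosomal protein mRNAs divided into 23 nuclear and 33 cytoplasmic calls of 78 (median -0.48, and 0.62 with total counts), and 72 of the 78 share over 10% of their windows with other genes. The other 6 had a median of 0.31. Rplp0, a stalk protein of the large subunit, had 63.7 CPM nuclear and 828 CPM cytoplasmic (ratio -3.70).

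mRNAs for splicing factors and their kinases stood on the other side, with 35 of 67 nuclear and 14 cytoplasmic and a median of 1.11. Clk1, a kinase of SR proteins, had 111 CPM nuclear and 10.5 CPM cytoplasmic (ratio 3.39). Srsf11, an SR protein gene, had 154 CPM nuclear and 14.3 CPM cytoplasmic (ratio 3.43), and Rbm39, a splicing coactivator, 234 CPM nuclear and 22.9 CPM cytoplasmic (ratio 3.35). Genes of this list are annotated with many noncoding and retained-intron isoforms, at a median of 37.1% of exonic bases that belong to no coding transcript, against 17.2% over protein-coding genes. Its 12 members with at most 10% of such bases had a median of 0.42, against -1.14 over protein-coding genes with the same property. Chromatin regulators and transcription factors had a median near that of all genes, 0.67, with 19 nuclear and 9 cytoplasmic calls of 39, and of -0.37 for the members with at most 10% of exonic bases outside coding transcripts. Tet2, a DNA demethylase, had 158 CPM nuclear and 13.3 CPM cytoplasmic (ratio 3.57), and the transcription factor Foxo3 135 CPM nuclear and 533 CPM cytoplasmic (ratio -1.98). The 25 genes compared for which nuclear retention has been described in mouse cells gave 19 nuclear calls and 1 cytoplasmic call (median 2.49). Microglial and lysosomal genes were mixed. The receptor Csf1r had 6.996 CPM nuclear and 0.894 CPM cytoplasmic (ratio 2.97), and the lineage factor Spi1 59.5 CPM nuclear and 445 CPM cytoplasmic (ratio -2.90). The lysosome list held 20 nuclear and 22 cytoplasmic calls of 68 (median 0.09). Its sign turned with median-of-ratios factors (-0.21), with a mean count of at least 30 (-0.08), without exon overlap (-0.11) and with at most 10% of bases outside coding transcripts (-0.48).

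**Figure D3:**
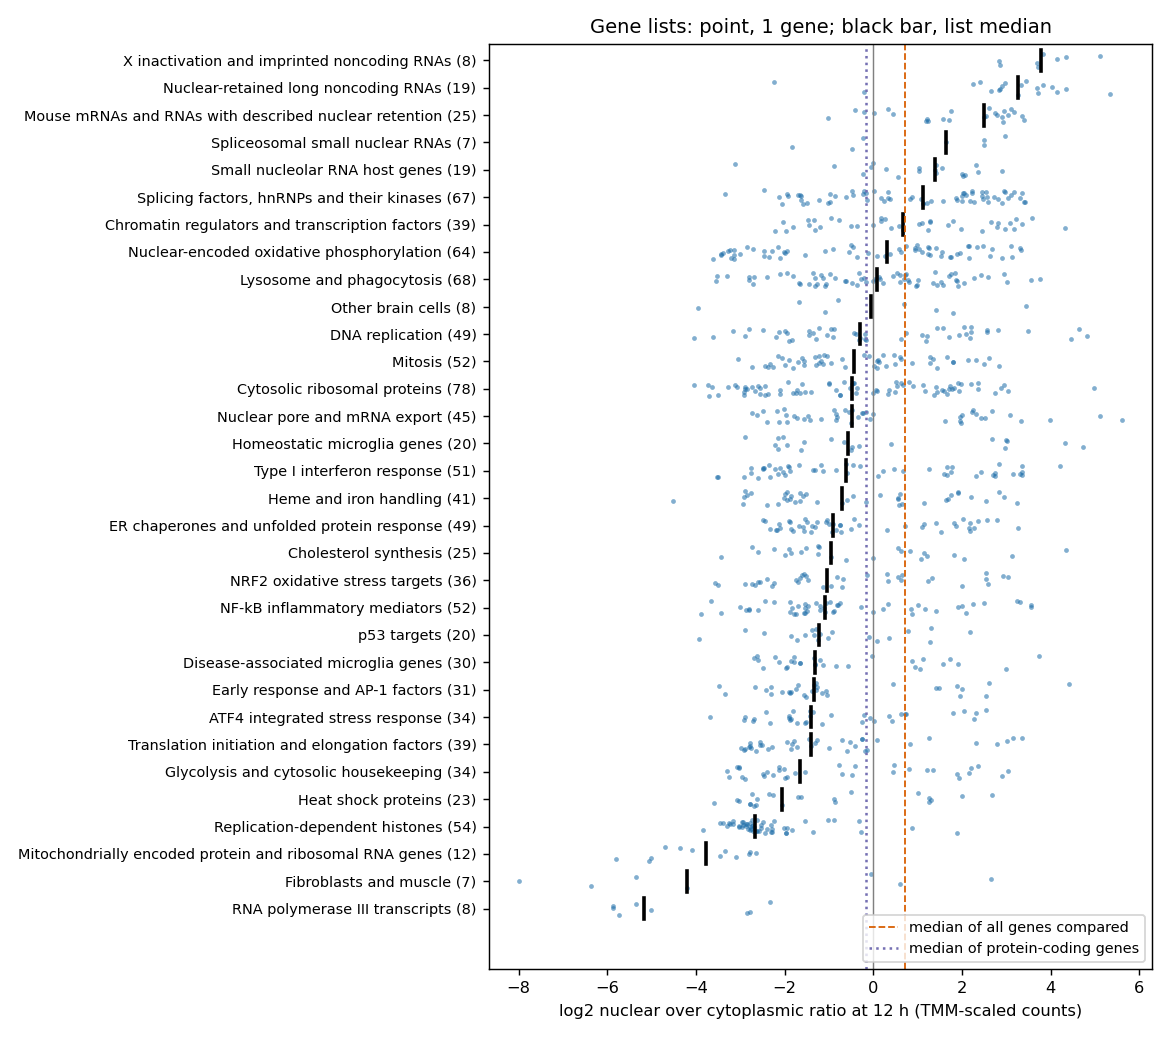
Log2 nuclear over cytoplasmic ratio at 12 h of every compared member (number in parentheses) of each gene list except the erythroid and leukocyte list, highest list median at the top. Each point is 1 gene, the black bar is the list median, and vertical lines mark 0 and the medians of all genes (0.71) and of protein-coding genes (-0.17); members of most mRNA lists spread over both sides, while polymerase III, mitochondrial and histone genes sit almost wholly on the cytoplasmic side.

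Gene structure, which the choice of genes did not use, went along with the ratio among protein-coding genes. In 5 equal bins by the number of exons of the representative transcript, the median ratio went through -1.18, -0.64, -0.25, 0.31 and 0.72, low to high (Spearman's rho across 10602 genes 0.23, given as a description). The 340 protein-coding genes with 1 exon had a median of -1.94, with 82 called nuclear and 213 cytoplasmic, and still -1.62 for 287 genes once the histones were left out. A steeper order came from annotation: by the share of exonic bases that lie in no coding transcript, such as retained introns and noncoding isoforms, the 5 bins had medians of -1.47, -0.78, -0.15, 0.50 and 1.16 (rho 0.30). Genes with at most 0.5% of such bases (2453) had a median of -1.36 and those with over 50% (1433) of 1.27. These bases count toward a gene whether or not the reads come from its mature mRNA. Coding length ran the same way as exon number, from -0.99 in the lowest to 0.48 in the highest bin, and 3′ untranslated length ran the other way, from 0.42 to -0.80. Genes for subunits of oxidative phosphorylation showed the same order within 1 pathway. Their 64 members gave 25 nuclear and 24 cytoplasmic calls, with a median of -2.48 for the 21 members with at most 10% of exonic bases outside coding transcripts and of 1.03 for the other 43. Ndufa2, a complex I subunit of the first kind, had 10.5 CPM nuclear and 129 CPM cytoplasmic (ratio -3.61).

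**Figure D4:**
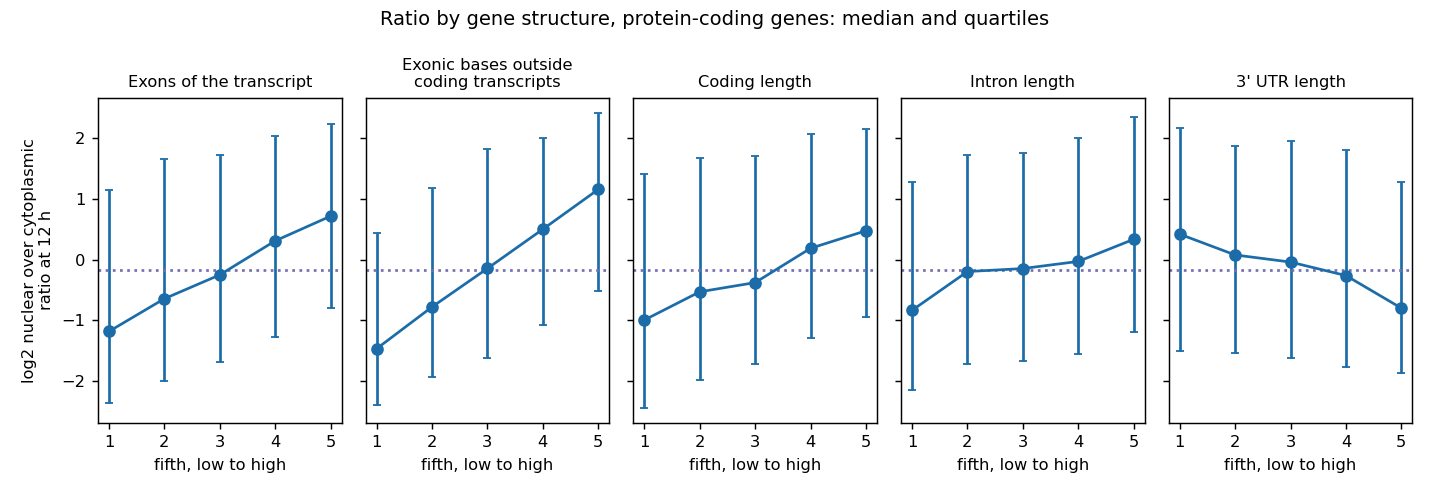
Median (point) and quartiles (bar ends) of the log2 nuclear over cytoplasmic ratio at 12 h of 10602 protein-coding genes in 5 equal bins of each of 5 properties, low to high. The dotted line is the median of protein-coding genes (-0.17); the medians climb over exon number and over the share of exonic bases outside coding transcripts (-1.47 to 1.16) and fall over 3′ untranslated length, with wide overlap between bins.

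With TMM scaling, most genes with a higher scaled level at 12 h than at 0 h in both fractions were called cytoplasmic. Called higher at 12 h than at 0 h were 7.86% of genes in the nuclear and 10.5% in the cytoplasmic fraction, and 464 genes (4.34% of 10694) in both, termed induced here. Of the 464, 53 (11.4%) were higher in the nuclear and 314 (67.7%) in the cytoplasmic fraction, with a median of -1.88. A gene could be called induced only with enough reads for both time comparisons, and the genes that had them were themselves more cytoplasmic than all 16367: of 10615 such genes 26.2% were called nuclear and 43.5% cytoplasmic, with a median of -0.65. With total counts 87 of the 464 were called nuclear and 207 (44.6%) cytoplasmic, against 40.8% nuclear and 20.5% cytoplasmic over those 10615. Among the 255 protein-coding ones 18 were called nuclear and 181 (71.0%) cytoplasmic, with a median of -1.86, against 45.1% cytoplasmic and a median of -0.75 over the 8574 protein-coding genes with enough reads. The choice uses the same 12 h columns as the ratio. Chosen instead at 24 h against 0 h, which uses neither 12 h column (7.88% of genes higher in the nuclear and 9.91% in the cytoplasmic fraction), 404 compared genes gave 54 nuclear and 268 cytoplasmic calls and a median of -1.84. At 0 h the 464 genes already had a median of -1.96 (with total counts, -0.78 at 12 h and -0.54 at 0 h). With TMM scaling, the 179 compared genes that were lower at 12 h in both fractions gave 61 nuclear (34.1%) and 60 cytoplasmic (33.5%) calls. Their median was -0.01, against -0.65 over the 10615 genes with enough reads (26.2% nuclear and 43.5% cytoplasmic). Total counts raise every one of these ratios by 1.10. In induced protein-coding genes a median of 1.28% of exonic bases lay outside coding transcripts, against 17.2% over protein-coding genes. The 162 of them with at most 10% of such bases had a median ratio of -2.00, against -1.14 over all protein-coding genes with that property. Neither comparison was limited to genes with enough reads for both time comparisons, so how much of these gaps that limit makes was not tested. At the nuclear end the 8 most nuclear induced genes with at least 100 mean counts were Rsad2, Nfkb1, 3 small nucleolar RNA genes and 3 other noncoding loci. The 95 processed pseudogenes among the 464, with 2 nuclear and 88 cytoplasmic calls, can hold reads of their parent mRNAs.

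Cytokines, chemokines and their regulators formed the largest named group, with 30 induced genes of the NF-kB list. Of these, 4 were nuclear, 23 cytoplasmic and 3 not called (5 nuclear and 9 cytoplasmic with total counts). With TMM scaling their cytoplasmic share of 76.7% was above the 67.7% of all 464 induced genes. With total counts, 9 of 30 was below the 44.6% of all 464, so this order depends on the scaling. The median of the 30 with TMM scaling, -1.55, was less cytoplasmic than the -1.88 of all 464. The whole list of 52 compared genes had 12 nuclear and 28 cytoplasmic calls and a median of -1.10, which is -0.00 with total counts and 0.19 with the dominant genes left out of the total. Il1a, the cytokine interleukin-1 alpha (chr2:129299610-129309972, minus strand), had 174 CPM nuclear and 2572 CPM cytoplasmic, a ratio of -3.88 (-3.93 to -3.84), with exons that overlap Gm14023. Il1b, its relative interleukin-1 beta, had 68.6 CPM nuclear and 746 CPM cytoplasmic (ratio -3.44). With TMM scaling both interleukin-1 mRNAs were thus over 10-fold higher in the cytoplasmic fraction. With total counts the difference was smaller, at ratios of -2.79 for Il1a and -2.35 for Il1b. The chemokine genes Ccl7, at 976 CPM nuclear and 6809.7 CPM cytoplasmic (ratio -2.80), and Ccl3, at 1720.5 CPM nuclear and 10509 CPM cytoplasmic (ratio -2.61), were cytoplasmic as well. Csf3, the growth factor of granulocytes (chr11:98701263-98703629, plus strand), had 677 CPM nuclear and 2284 CPM cytoplasmic (ratio -1.75). Its level was 7.49 log2 units higher at 12 h than at 0 h in the nuclear and 9.27 units in the cytoplasmic fraction, the largest differences among the 30. Ptgs2, the inducible cyclooxygenase, had 663 CPM nuclear and 1936 CPM cytoplasmic (ratio -1.54), and Acod1, which makes itaconate, 2415 CPM nuclear and 8634 CPM cytoplasmic (ratio -1.84). Nfkbia, the inhibitor of NF-kB that ends its own signal, had 98.8 CPM nuclear and 797 CPM cytoplasmic (ratio -3.01).

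The 4 induced genes of that list on the nuclear side were Nfkb1, Il6, Ccl2 and Cxcl2. Nfkb1, the p105 and p50 subunit gene, was the most nuclear, with 130.1 CPM nuclear and 10.99 CPM cytoplasmic (ratio 3.56), and 65.8% of its exonic bases lie outside coding transcripts. Il6, the interleukin-6 gene, had 43.9 CPM nuclear and 10.3 CPM cytoplasmic (ratio 2.09). Ccl2, a monocyte chemoattractant next to Ccl7 on chromosome 11, had 63.7 CPM nuclear and 24.05 CPM cytoplasmic (ratio 1.41), on the opposite side from its neighbour. Cxcl2, a neutrophil chemoattractant, had 8.43 CPM nuclear and 3.75 CPM cytoplasmic (ratio 1.17). Tnf, the tumour necrosis factor gene, was near balance at 18.9 CPM nuclear and 40.4 CPM cytoplasmic, a ratio of -1.09 (-1.29 to -0.90) that turns to 0.0047 with total counts and is positive without the dominant genes in the total.

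AU-rich elements in the 3′ untranslated region mark many short-lived cytokine mRNAs, and they were found in cytokine mRNAs of both sides. The windows of 30 bases with most ATTTA, in capitals, are shown for nuclear (Il6, Ccl2, Cxcl2) and cytoplasmic (Csf3, Il1b, Ptgs2) induced mRNAs, 5′ to 3′ in the sense of the gene on GRCm38. Il6 has it at chr5:30019677-30019706 (plus strand), Ccl2 at chr11:82037193-82037222 (plus), Cxcl2 at chr5:90905327-90905356 (plus), Csf3 at chr11:98702984-98703013 (plus), Il1b at chr2:129364808-129364837 (minus) and Ptgs2 at chr1:150105794-150105823 (plus).
Il6: tttaattatttttaATTTAttgataATTTA
Ccl2: tgatgccttaattaatattaaacttATTTA
Cxcl2: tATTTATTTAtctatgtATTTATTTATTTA
Csf3: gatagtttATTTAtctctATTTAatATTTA
Il1b: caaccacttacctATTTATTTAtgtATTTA
Ptgs2: ccatATTTATTTATTTAtgtgaagaATTTA
Read on the sense strand, ATTTA occurred in 61.3% of 248 induced mRNAs with an annotated 3′ untranslated region and in 66.3% of all 10398. TATTTAT, which contains ATTTA, occurred in 26.2% of the induced and 27.6% of all, and ATTTATTTA, which overlaps both, in 6.45% of the induced and 5.74% of all. The median region was shorter in the induced mRNAs, at 684.5 bases against 968.5. Induced mRNAs with ATTTATTTA (16) had a median ratio of -1.63 and those without (232) of -1.89.

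The other induced mRNA groups named here also had more cytoplasmic than nuclear calls, as did the 464 induced genes together (11.4% nuclear and 67.7% cytoplasmic). Induced small nuclear-type RNAs did not: small nucleolar RNAs gave 15 nuclear and 0 cytoplasmic calls of 17. Small Cajal body RNAs gave 4 and 0 of 6, and listed spliceosomal RNAs 2 and 0 of 4. Of 9 induced interferon response genes 2 were nuclear and 6 cytoplasmic (66.7%), near the share over all induced genes. Isg15, a ubiquitin-like modifier, had 43.4 CPM nuclear and 498 CPM cytoplasmic (ratio -3.52), and Ifit3, an antiviral effector, 20.8 CPM nuclear and 157 CPM cytoplasmic (ratio -2.91). The 2 nuclear ones were Rsad2, the gene of viperin, with 30.03 CPM nuclear and 3.397 CPM cytoplasmic (ratio 3.14), and Xaf1, with 45.8 CPM nuclear and 6.44 CPM cytoplasmic (ratio 2.83). Of 8 induced NRF2 targets none was nuclear and 5 were cytoplasmic (62.5%), a cytoplasmic share also near that of all induced genes. Hmox1, which breaks down heme (chr8:75093621-75100589, plus strand), had 405 CPM nuclear and 2129 CPM cytoplasmic (ratio -2.39, -2.43 to -2.36). Gsr, which regenerates glutathione, had 114 CPM nuclear and 850.2 CPM cytoplasmic (ratio -2.90). Slc7a11, the cystine transporter, was one of the 10 most abundant features of the nuclear column and was not called, with 2229.6 CPM nuclear and 4302 CPM cytoplasmic (ratio -0.95, and 0.15 with total counts). All 5 induced early response genes were cytoplasmic (2 with total counts), among them Ier3 with 727 CPM nuclear and 2674 CPM cytoplasmic (ratio -1.88). Fosl2, an AP-1 subunit, was the closest of them to balance (131 CPM nuclear and 271 CPM cytoplasmic, ratio -1.05), and its ratio turns positive with total counts. Of 5 induced sterol synthesis genes none was nuclear and 4 were cytoplasmic (1 nuclear and 2 cytoplasmic with total counts), and Idi1, the isomerase of isoprenoid units, had 13.7 CPM nuclear and 149 CPM cytoplasmic (ratio -3.44).

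Heme and iron genes as a list gave 11 nuclear and 20 cytoplasmic calls of 41 and a median of -0.71. The median moved widely with the processing, to 0.39 with total counts, -1.55 for the 36 with a mean count of at least 30, -1.51 for the 27 without exon overlap and -1.81 for the 12 with at most 10% of exonic bases outside coding transcripts. The heme transporter Slc48a1 had 22.4 CPM nuclear and 172 CPM cytoplasmic (ratio -2.94), in exons that overlap Hdac7. Ferritin light chain, which stores iron, is counted over near-identical copies. Ftl1 had 30.7 CPM nuclear and 5.27 CPM cytoplasmic (ratio 2.54), and its copy Ftl1-ps1 had 10.1 CPM nuclear and 231 CPM cytoplasmic (ratio -4.51). Over 90% of the windows of both occur in other transcripts, so the location of the mature ferritin mRNA cannot be read from either.

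The remaining stress, cell cycle and microglial lists had medians below that of protein-coding genes (-0.17), of which 35.3% were called nuclear and 37.5% cytoplasmic. DNA replication genes, nuclear pore and export factors and homeostatic microglia genes had shares of calls near that background. The nuclear share of interferon response genes was also near it, while their cytoplasmic share was higher. Interferon response genes gave 18 nuclear and 24 cytoplasmic calls of 51 (median -0.61), NRF2 targets 8 and 18 of 36 (-1.04), and cholesterol synthesis genes 7 and 12 of 25 (-0.95). ER chaperones gave 14 nuclear and 22 cytoplasmic calls of 49 (-0.91), nuclear pore and export factors 16 and 15 of 45 (-0.49), DNA replication genes 19 and 18 of 49 (-0.31), mitosis genes 12 and 23 of 52 (-0.43) and homeostatic microglia genes 6 and 8 of 20 (-0.58). With total counts all 8 of these medians turn positive, between 0.05 and 0.79, as does that of protein-coding genes (0.93). The mitosis list also turns positive without exon overlap (0.08) and with at most 10% of windows shared with other genes (0.04). Without exon overlap the median was -1.57 for homeostatic microglia genes (15 genes) and -1.68 for interferon response genes (29). It was -0.82 for nuclear pore and export factors (29), -0.63 for DNA replication genes (32) and -0.43 for protein-coding genes (6593). Nearness to the background therefore depends on genes with exon overlap, most of all in the first 2 lists. ATF4 targets gave 5 nuclear and 19 cytoplasmic calls of 34 (-1.40), early response genes 8 and 22 of 31 (-1.33), disease-associated microglia genes 7 and 18 of 30 (-1.32) and p53 targets 3 and 12 of 20 (-1.22), and these 4 medians stay below 0 with total counts, while that of the p53 targets is 0.06 without the dominant genes in the total.

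Marker genes of other cells were detected in both 12 h columns. The list of other brain cells, with 14 of 28 genes at 0 in both columns, summed to 306 CPM in the nuclear and 518 CPM in the cytoplasmic fraction, not far below the 441 CPM and 589 CPM of the microglial markers. The fibroblast and muscle list of 21 genes, 2 of them at 0 in both columns, summed to 15.7 CPM in the nuclear and 57.7 CPM in the cytoplasmic fraction at 12 h, against a cytoplasmic sum of 3.26 CPM at 0 h. Actc1, cardiac actin, was at 0 in the nuclear and at 32.98 CPM in the cytoplasmic column. Its ratio against a floor of 3 reads over the nuclear group is at most -7.98, the lowest of any gene compared. Whether these RNAs come from other cells was not tested. The erythroid and leukocyte list, with 10 of 21 genes at 0 in both columns, summed to 11.3 CPM nuclear and 3.75 CPM cytoplasmic.

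Location at 12 h was close to that at the other times. Among 15781 genes that passed the limit at both 12 h and 0 h, the ratios had a Pearson r of 0.94 across genes, and 86.0% of genes had the same call. Between 12 h and 24 h r was 0.95 over 15867 genes, with 90.8% of calls the same. Both coefficients are across genes, which are not independent replicates, and carry no p-value. Protein-coding genes had a median of -0.17 at 12 h and -0.50 at 0 h, and the ribosomal protein list -0.48 at 12 h and -1.03 at 0 h. Histone mRNAs had a median of -2.67 at 12 h and -3.69 at 0 h, and the NF-kB list -1.10 at 12 h and -0.91 at 0 h. These differences between times depend on the scaling, whose shift is not the same at both: with total counts the medians were 0.93 at 12 h and 0.91 at 0 h for protein-coding genes, 0.62 at 12 h and 0.38 at 0 h for ribosomal proteins, -1.57 at 12 h and -2.28 at 0 h for histones, and -0.00 at 12 h and 0.50 at 0 h for the NF-kB list. Changes in call to the opposite side were few: 2 genes were nuclear at 12 h and cytoplasmic at 0 h, and 14 were cytoplasmic at 12 h and nuclear at 0 h, and under the other scalings 2 to 4 and 7 to 16. The one with most reads was Snord118, which encodes the U8 nucleolar RNA, with mean counts of 664 nuclear and 149 cytoplasmic at 12 h, a ratio of 1.11 at 12 h and of -1.002 at 0 h. Among the 14 were Tnf, with -1.09 at 12 h and 1.94 at 0 h, and Cd68, a lysosomal glycoprotein of macrophages, with -1.12 at 12 h and 1.31 at 0 h. With total counts none of these 3 was called on opposite sides: Snord118 had 2.21 at 12 h and 0.41 at 0 h, Tnf 0.0047 at 12 h and 3.36 at 0 h, and Cd68 -0.03 at 12 h and 2.73 at 0 h. Cytokine mRNAs such as Il1b and Csf3 lay further toward the cytoplasmic side at 12 h. Il1b had a ratio of -3.44 at 12 h and -1.48 at 0 h, and Csf3 of -1.75 at 12 h and -0.10 at 0 h, on few untreated reads (3.77 CPM nuclear and 4.03 CPM cytoplasmic). Hmox1 was less cytoplasmic at 12 h, at -2.39 at 12 h and -3.04 at 0 h (-1.30 at 12 h and -1.63 at 0 h with total counts). No spread between libraries stands behind these differences, so none was tested.

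**Figure D5:**
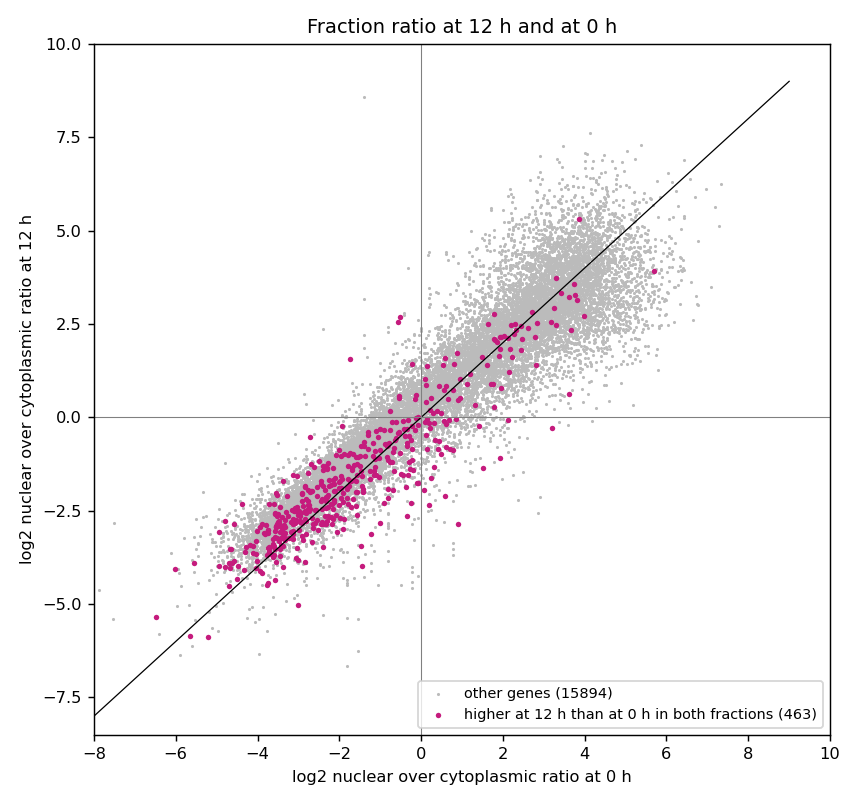
Log2 nuclear over cytoplasmic ratio of each gene compared at 12 h (vertical axis) against the same ratio at 0 h (horizontal axis), for genes with a ratio at both times; coloured points are the genes called higher at 12 h than at 0 h in both fractions. Points follow the diagonal line of equality (r 0.94), and most coloured points lie in the lower left, cytoplasmic at both times.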

How the data were processed

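Per the labels' protocols, RNA of nuclear and cytoplasmic fractions of BV2 cells was tagmented for library preparation. The submitters' processing notes name HISAT2 2.2.0, featureCounts and DESeq2 and the build GRCm38. Strand use in counting is not given in the sources used here. Mean counts per group, over 3 libraries, were deposited by the authors as 1 column each (each value times 3 was whole within 0.001), along with TPM values per group. Gene classes and structures came from GENCODE M21 (55227 of 55487 identifiers matched).

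Mean counts were turned back to summed reads and scaled by TMM over the 6 columns (trims of 30% and 5%). The log2 ratio of 2 columns has an exact Clopper-Pearson 95% interval from the reads, and a column at 0 was set to a floor of 3 reads over the group. Calls needed a 2-fold ratio and an interval without 0. With 1 mean column per group there was no test, and lists are described by counts and medians beside all genes. Time comparisons were scaled within a fraction in the same way. Exons overlapping another gene were noted, as was the share of 50-base windows of the representative transcript found in other genes. The scripts were tested on simulated counts in which most genes had the same share of reads in both fractions. That test does not cover the scaling of these columns, where most genes were called. Software was scipy 1.17.1, pandas 2.3.3, numpy 2.4.6 and matplotlib 3.10.9 under Python 3.11.15.

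The gene members, the 33 lists and the tests were chosen with earlier results of these data known. Named genes were the 10 highest and 10 lowest ratios among genes with at least 100 mean counts, up to 3 at either end of each list, the 8 most nuclear and 8 most cytoplasmic induced genes, and a list of fixed genes, of which a selection is printed. Acod1, Cd68, Cxcl2, Fosl2, Gm23935, Ier3, Nfkbia, Snord15a, Snord118, Xaf1 and ENSMUSG00000118642 were named after their values were seen. Alternatives were other scalings (total counts, total counts without the highest genes and mitochondrial genes, TMM over the 12 h columns, median-of-ratios factors, the deposited TPM as log2(TPM + 1)), other count limits, a 4-fold threshold and subsets of genes.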

Additional observations from a re-analysis of the deposited data

Results flagged for a closer look

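In 3 of the genes named above the fraction with the higher scaled level at 12 h was the opposite of that at 0 h. Each was past the 2-fold limit at both times, and this difference was not tested because each group has only a mean column. Tnf had a log2 nuclear over cytoplasmic ratio of -1.09 at 12 h and 1.94 at 0 h, Cd68 of -1.12 at 12 h and 1.31 at 0 h, and Snord118 of 1.11 at 12 h and -1.002 at 0 h. All 3 lie close to the limit at 12 h, and each change of side depends on the scaling: with total counts the ratios were 0.0047 at 12 h and 3.36 at 0 h for Tnf, -0.03 at 12 h and 2.73 at 0 h for Cd68, and 2.21 at 12 h and 0.41 at 0 h for Snord118.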

How the results depend on the processing

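With total counts, 2572 genes were higher in the cytoplasmic fraction, and 2111 without the highest genes and mitochondrial genes in the total, 2188 with log2(TPM + 1) and 2796 at 4-fold, against 5085. Among genes with at most 10% of exonic bases outside transcripts of their class, an alternative chosen after seeing the data that tests fewer genes (9743), 4788 were higher in the nuclear and 3291 in the cytoplasmic fraction. The median ratio of the induced genes, -1.88, was -0.78 with total counts, -0.59 without the highest and mitochondrial genes, -0.64 with log2(TPM + 1), -2.18 with median-of-ratios factors, -2.01 with a mean count of at least 30, -2.02 for at most 10% of bases outside the class, -1.43 for at most 10% of windows shared with another gene (also chosen after seeing the data), and -1.19 and -1.17 for genes chosen in the nuclear or the cytoplasmic fraction only. Among list medians and named genes past the 2-fold limit, signs turned with total counts for the NRF2 list (0.055), Fosl2 (0.043) and Tnf (0.0047), without the highest and mitochondrial genes for the NF-kB list (0.19), the NRF2 list (0.24), p53 targets (0.061), Cd68 (0.16), Fosl2 (0.23) and Tnf (0.19), and with log2(TPM + 1) for the NF-kB list (0.023), the NRF2 list (0.082), Cd68 (0.000513), Fosl2 (0.068) and Tnf (0.030). With at least 1 read as the limit the intergenic long noncoding RNAs had a median of -0.46. Counting those short of 2-fold as well, 12 of 43 list or class medians and 4 of 63 named genes turned to the nuclear side with total counts, 14 and 5 without the highest and mitochondrial genes, and 13 and 5 with log2(TPM + 1), while 2 medians turned to the cytoplasmic side with median-of-ratios factors, 3 with a mean count of at least 30 and 2 with at least 1 read. Apart from the constant shift that a scaling applies, the cause was not tested. TMM over the 12 h columns alone turned the sign of 1 median, that of the other brain cell markers (-0.05, and 0.04 under this scaling), and moved neither call count by over 1.5 times. Scalings of the time comparison were added after seeing the data, and the difference between 12 h and 0 h in the median of protein-coding genes was 0.34 with TMM, 0.02 with total counts and -0.02 without the highest and mitochondrial genes.

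No paired analysis was possible because the columns are group means without replicate numbers, and leaving out a replicate was not run for the same reason. Without replicate spread, a ratio cannot be set against variation between libraries. A mean count of 10 is reached by 15825 genes in the nuclear and 10126 in the cytoplasmic column, so the highest ratios rest on few cytoplasmic reads. The strand of the reads, near-identical copies and annotated noncoding isoforms limit what a gene's reads stand for.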
